A study of Mus musculus with 6 samples.

Results

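The 56 genes described here code for protein parts of the spliceosome and for proteins that guide it, and they fall into 4 families. They are all the protein-coding genes of the mouse annotation (GENCODE M21) whose symbols begin with Snrp (12 genes, SNRP), with Lsm and a number (13 genes, LSM), with Srsf and a number (11 genes, SRSF) or with Hnrnp (20 genes, HNRNP). The rule uses names and no measured value, but the families were chosen with earlier results of these data known. They are 56 of the 25690 gene symbols measured, and all 56 were among the 15474 genes with enough counts for a test.

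Introns are removed from pre-mRNA by the spliceosome, which is built on small nuclear RNAs bound by proteins. In the U1, U2, U4 and U5 particles, the Sm proteins (the products of *Snrpb*, *Snrpd1*, *Snrpd2*, *Snrpd3*, *Snrpe*, *Snrpf* and *Snrpg*) close into a ring around the RNA, whereas in the U6 particle a related ring of Lsm proteins, with *Lsm8* as its particular subunit, holds the RNA's end. When *Lsm1* takes the place of *Lsm8*, the ring acts in the cytoplasm in mRNA decay. SR proteins, coded for by the SRSF genes, mostly bind exons and favour the use of nearby splice sites, and hnRNP proteins coat pre-mRNA and often oppose it. Myc is a transcription factor that drives growth and division, and genes of the core splicing machinery are known among its targets in dividing cells.

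Bulk RNA-seq was available for CD27SP NK cells, an immature stage, which were sorted as NK1.1+CD27+CD11b- BM cells without CD3. The *Ncr1cre Myc* wt/wt genotype served as the control of *Ncr1cre Myc* fl/fl, and each had 3 libraries, which carry the numbers 1, 2 and 4. Both genotypes carry the *Ncr1cre* allele on a C57BL/6 background, so they differ in the floxed *Myc* alleles. The recombinase is made only in cells that express *Ncr1*, the gene of the NK cell receptor NKp46, and Myc is therefore lost from that stage on and not in their progenitors. According to the methods, the mice were some weeks old and matched for sex and age. Whether cells of several mice were pooled was not given in the sources used here. Values are given below for libraries 1, 2 and 4 of a genotype, in that order, as counts per Mio (CPM) normalized by TMM, a scaling that sets most genes equal between libraries. Since the libraries are bulk, fewer cells that express a gene and less RNA of it per cell cannot be told apart.

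The libraries held between 54550907 and 64962491 estimated counts, apart from wt/wt library 1 with 8101219. This shallow library stood apart in its low values: 16.7% of the tested genes were below both other wt/wt libraries by over 1.5 times in it, against 3.09% to 5.80% for each of the other libraries in its own genotype. The share above both by this factor, 4.91%, was within the 2.57% to 6.17% of the other libraries. Among the 56 splicing genes 4 were above (*Snrpa1*, *Snrpd1*, *Srsf4* and *Srsf7*) and 9 below (*Snrpb*, *Snrpc*, *Snrpd3*, *Snrpf*, *Snrpg*, *Lsm4*, *Lsm14b*, *Hnrnpa0* and *Hnrnpul2*), counts near those of genes in general. Values without it are given where it moves the log2 fold change of one of the 56 genes by more than 1.5 times, and then come from a fit without the block. *Myc*, the deleted gene, was at 200, 183 and 164 CPM in wt/wt cells and at 61.5, 64.6 and 76.5 CPM in fl/fl cells, a log2 fold change of −1.44 (standard error, SE, 0.15, edgeR adjusted p = 0.00189). The summed CPM of 12 NK cell markers was 14599 to 15161 in wt/wt and 16905 to 18699 in fl/fl libraries, and none of the 12 passed the test. The values of other marker groups moved with the genotype: 15 of 15 genes of dividing cells had lower values, 5 of them past the threshold, with summed CPM of 1869 to 2370 in wt/wt and 916 to 1321 in fl/fl libraries, and 9 of 10 basophil and mast cell markers rose, from summed CPM of 82.2 to 102 to between 257 and 526. Of the other lists, 5 of 7 genes of granulocyte-monocyte progenitors, 4 of 7 of monocytes, 3 of 7 of dendritic cells, 2 of 8 of erythroid cells, 1 of 7 of neutrophils and 1 of 5 of platelets rose past the threshold, 1 of 6 of mature NK cells fell, and none of ILC1, B or T cells passed. Of all tested genes, 1.28% rose and 0.872% fell past the threshold. All 7 ILC1 genes were higher in fl/fl cells, at summed CPM of 318 to 480 in wt/wt and 498 to 595 in fl/fl libraries. All 6 tested B cell genes were higher too (4.55 to 8.64 and 12.1 to 16.9). Of 7 tested T cell genes, 4 were higher and 3 lower. Sums were 774 to 817 and 1290 to 1698 for progenitors. Those of erythroid cells were 611 to 845 and 1258 to 1635, and of dendritic cells 272 to 338 and 662 to 843. Vpreb1, a B cell marker, was at 0 in all wt/wt libraries. The part of these cells in the results on splicing genes was not tested.

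The splicing genes were lower in fl/fl than in wt/wt cells as a body, by small amounts, and none passed the threshold by itself. A gene passed with an adjusted p under 0.01 in edgeR's quasi-likelihood test over all genes, fitted with the replicate number as a block, if its log2 fold change was also 0.5 or more in size, and 0.872% of all tested genes passed it as lower and 1.28% as higher. Of the 56 genes, 0 passed in either direction. At an unadjusted p below 0.05, without a fold limit, 22 of the 56 were lower (39.3%) and 0 were higher, against 10.2% and 12.4% of all tested genes. A log2 fold change below 0 was found for 50 of the 56 (89.3%), against 48.5% of all tested genes. In 24 of the 56 (42.9%) every fl/fl library lay below every wt/wt library, against 15.1% of all tested genes, and in 0 did every fl/fl library lie above, against 16.2%. The median log2 fold change was −0.27 over the 56 and 0.01 over all tested genes.

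These counts were as large without the shallow library. With wt/wt library 1 left out and no block, a recount added after seeing the data, 25 of the 56 genes (44.6%) were lower and 0 higher at an unadjusted p below 0.05 in edgeR, against 12.2% and 12.5% of all tested genes, and again 50 of the 56 had a log2 fold change below 0. By family, 9 SNRP, 6 LSM, 6 SRSF and 4 HNRNP genes made up the 25. All fl/fl libraries lay below both remaining wt/wt libraries for 35 of the 56 (62.5%), against 22.3% of all tested genes.

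Other settings called between 0 and 5 of the 56 genes, all of them lower. DESeq2 called 5, namely *Snrpd1*, *Snrpd2*, *Snrpe*, *Snrpf* and *Lsm7*, at a background of 3.54% of all tested genes. The same 5 genes were those with an adjusted p below 0.05 in edgeR without a fold limit, where the background was 3.38%. With no filter on low counts 3 were called (*Snrpd1*, *Snrpd2* and *Snrpf*), at a background of 1.83%. EdgeR without the block, at 1.19%, and limma-trend and the largest adjusted p of the 3 tools, both at 0.504%, called 0. Without wt/wt library 1, and with no block, *Snrpd1* and *Lsm4* passed, at a background of 0.814%.

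**Figure D1:**
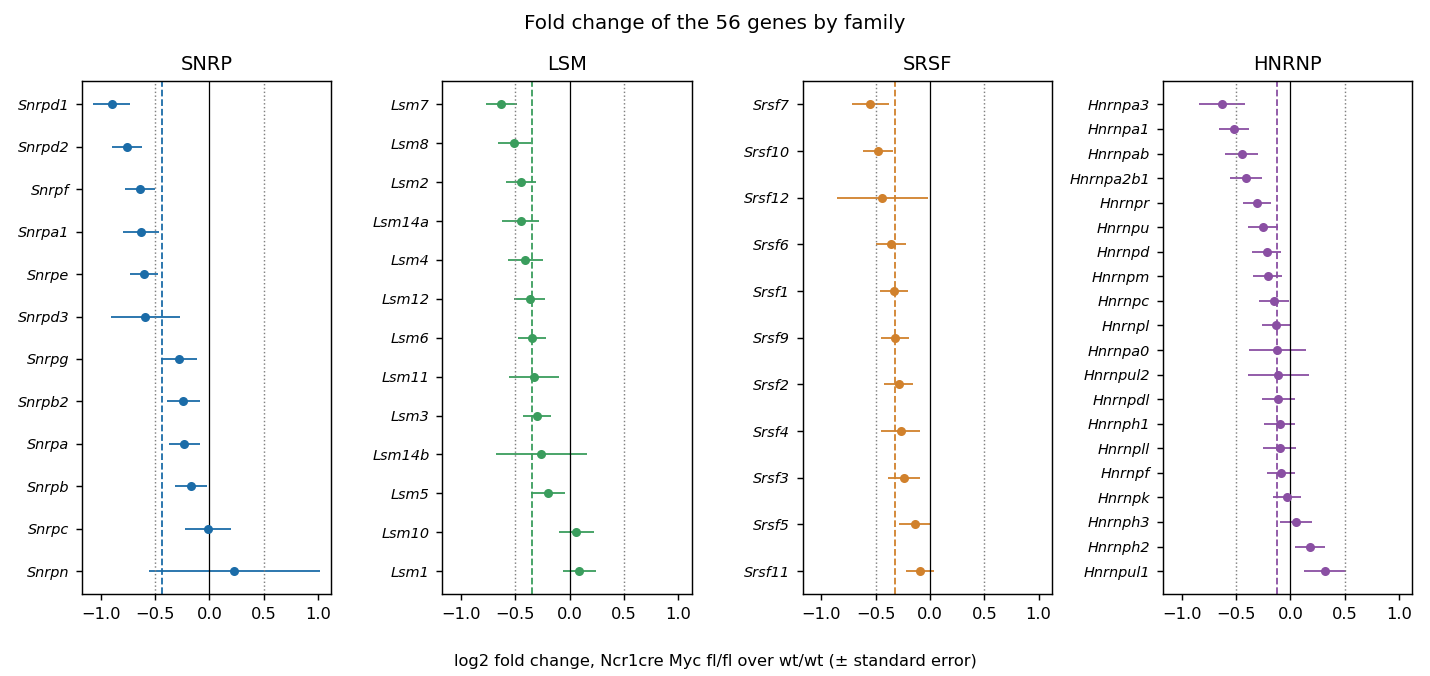
Log2 fold change of each of the 56 genes (points, 1 panel per family) with its standard error (bars), *Ncr1cre Myc* fl/fl over wt/wt, 3 libraries each. Solid lines mark 0, dotted lines the limit of 0.5 in either direction and dashed lines the family's median: 11 of 12 SNRP, 11 of 13 LSM, 11 of 11 SRSF and 17 of 20 HNRNP genes lie left of 0.

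The 4 families differed in the size of the shift, which is given here as a description. The median log2 fold change was −0.44 over the 12 SNRP genes, −0.35 over the 13 LSM genes, −0.32 over the 11 SRSF genes and −0.13 over the 20 HNRNP genes. At an unadjusted p below 0.05 in edgeR, 5 SNRP, 7 LSM, 5 SRSF and 5 HNRNP genes were lower, at the background of 10.2%. Groups of libraries without overlap, fl/fl being lower, were seen in 4 SNRP, 6 LSM, 8 SRSF and 6 HNRNP genes, at the background of 15.1%. Over all the ways of processing tried, the medians ranged from −0.57 to −0.32 for SNRP, from −0.40 to −0.28 for LSM, from −0.36 to −0.25 for SRSF and from −0.23 to −0.10 for HNRNP.

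**Figure D2:**
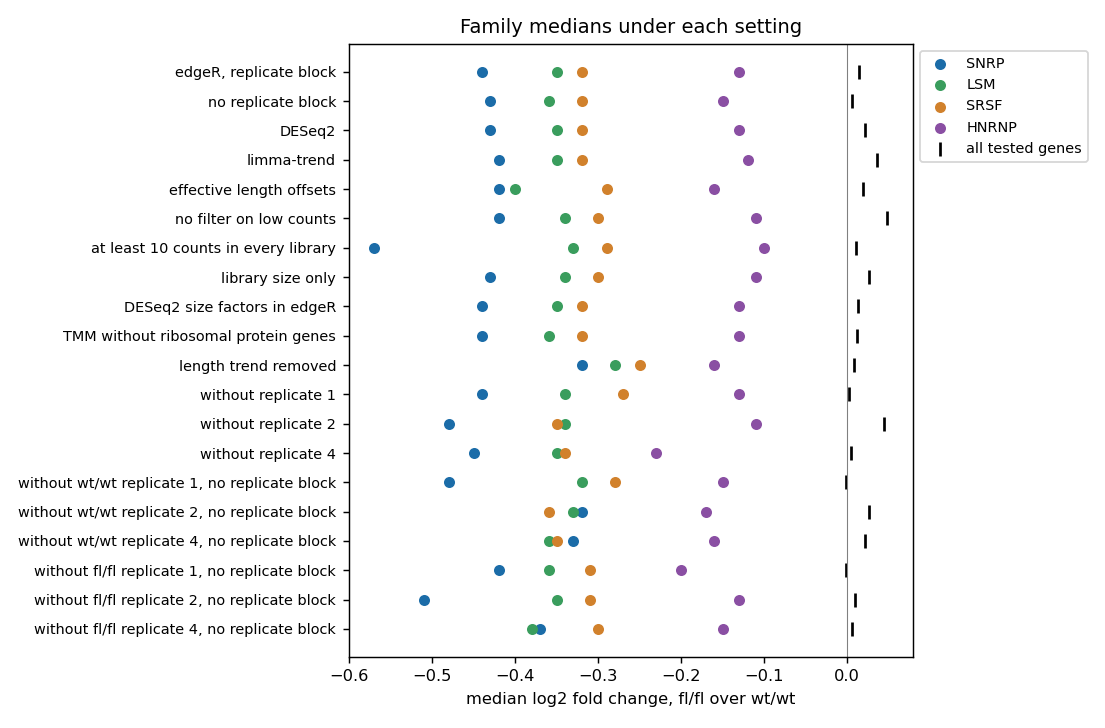
Median log2 fold change of each family (coloured points) and of all tested genes (black ticks) under each way of processing (vertical axis). The medians of all 4 families lie below that of all tested genes in every setting, and HNRNP lies nearest to it, between −0.23 and −0.10.

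Most of the lowest values among the SNRP genes were in the Sm ring, the core that U1, U2, U4 and U5 share. All 7 ring genes had log2 fold changes below 0, with a median of −0.60, and 4 of them had an unadjusted p below 0.05, where the shares of all tested genes were 48.5% and 10.2%. *Snrpd1* codes for SmD1, which pairs with SmD2 in the ring. It was at 143, 87.2 and 93.5 CPM in wt/wt cells and at 54.5, 57.0 and 57.0 CPM in fl/fl cells. The fl/fl libraries were close to each other and all below the wt/wt libraries, of which the shallow first one was far above the others. For *Snrpd1* the log2 fold change was −0.90 (SE 0.17, edgeR adjusted p = 0.0140), the lowest of the 56. Without replicate 1 in both genotypes it was −0.66 (edgeR adjusted p = 0.0521), and without wt/wt library 1 alone, with no block, it was −0.70 (edgeR adjusted p = 0.00991).

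*Snrpd2*, the gene of its partner SmD2, was at 98.9, 73.0 and 65.4 CPM in wt/wt and at 48.9, 47.8 and 41.8 CPM in fl/fl cells. Again the groups did not overlap and library 1 was the highest of its genotype. On the log2 scale the fold change was −0.76 (SE 0.14, edgeR adjusted p = 0.0141). *Snrpe* and *Snrpf* code for SmE and SmF, which join the ring together with SmG. *Snrpe* was at 154, 160 and 173 CPM in wt/wt and at 99.9, 118 and 104 CPM in fl/fl cells, without overlap and with little spread in either genotype. The log2 fold change of *Snrpe* was −0.60 (SE 0.13, edgeR adjusted p = 0.0266). *Snrpf* was at 76.3, 126 and 128 CPM in wt/wt and at 58.2, 77.9 and 72.3 CPM in fl/fl cells. Here the shallow wt/wt library was low, and it lay below fl/fl library 2, the only overlap between the groups. For *Snrpf* the log2 fold change was −0.64 (SE 0.14, edgeR adjusted p = 0.0258).

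In the remaining ring genes at least 1 library stood apart from its genotype. *Snrpb*, which codes for SmB and was the most abundant SNRP gene per length (mean of 560 TPM, transcripts per Mio, over the 6 libraries), was at 286, 472 and 472 CPM in wt/wt and at 317, 389 and 366 CPM in fl/fl cells. The wt/wt libraries 2 and 4 were above all fl/fl libraries, while wt/wt library 1 was the lowest of all. The fitted log2 fold change was −0.17 (SE 0.15, edgeR adjusted p = 0.570), and −0.42 without wt/wt library 1 and with no block (edgeR adjusted p = 0.0637). *Snrpg*, for SmG, had a log2 fold change of −0.28 (edgeR adjusted p = 0.365), and of −0.53 without wt/wt library 1 (edgeR adjusted p = 0.0235). *Snrpd3*, for SmD3, had the widest spread of the ring relative to its level. It ranged from 46.4 to 89.4 CPM in wt/wt and from 32.7 to 72.1 CPM in fl/fl libraries. Here fl/fl library 1 was over 1.5 times the other fl/fl libraries. The log2 fold change of *Snrpd3* was −0.59 (edgeR adjusted p = 0.316), −1.16 without replicate 1 in both genotypes (edgeR adjusted p = 0.0184) and −0.78 without wt/wt library 1 alone (edgeR adjusted p = 0.143). *Snrpn*, a paralog of *Snrpb* used mainly in neurons, held between 1 and 25 estimated counts in a library. Its log2 fold change of 0.23 has an SE of 0.79 and turns negative under some settings, so no direction can be given.

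**Figure D3:**
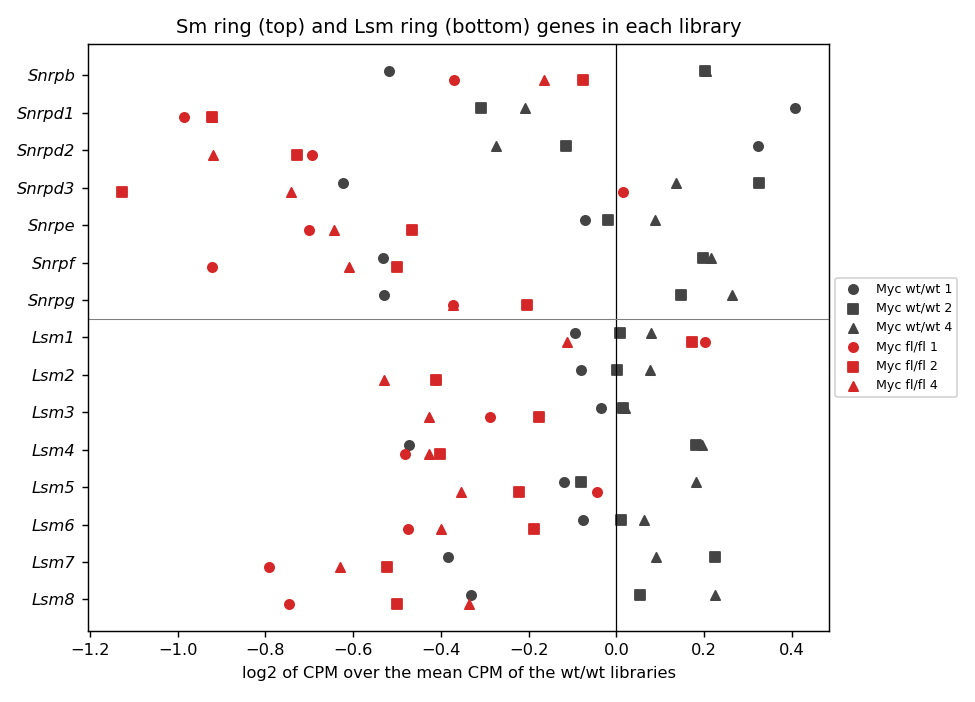
Level of each Sm ring gene (top 7) and Lsm ring gene (bottom 8) in each library, as log2 of its CPM over the mean CPM of the 3 wt/wt libraries (horizontal axis). Grey symbols are wt/wt and red symbols fl/fl libraries, with the shape giving the replicate number: red lies left of grey without overlap for *Snrpd1*, *Snrpd2*, *Snrpe*, *Lsm2*, *Lsm3*, *Lsm6*, *Lsm7* and *Lsm8*.

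The 4 other SNRP genes belong to single particles. *Snrpa1* codes for U2-A', a U2 protein, and was at 155, 95.0 and 98.3 CPM in wt/wt and at 70.4, 76.5 and 72.2 CPM in fl/fl cells. The groups did not overlap, and wt/wt library 1 was over 1.5 times the others. Its log2 fold change was −0.63 (SE 0.17, edgeR adjusted p = 0.0585), −0.42 without that library and −0.38 without replicate 1 in both genotypes (edgeR adjusted p = 0.0461 and 0.222). The genes of the U1 proteins A and C, *Snrpa* and *Snrpc*, and of the U2 protein B'', *Snrpb2*, had log2 fold changes of −0.23, −0.01 and −0.24, with adjusted p of 0.373, 0.981 and 0.390 in edgeR. Without wt/wt library 1, which was low for *Snrpc*, those of *Snrpa* and *Snrpc* were −0.37 and −0.27 (edgeR adjusted p = 0.0586 and 0.224).

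Myc binds the sequence CACGTG, called an E-box, with its partner Max. RefSeq promoters on the GRCm38.p6 build matched 49 of the 56 genes by symbol. CACGTG, which reads the same on both strands, was looked for in the 250 bases before each RefSeq start of a gene. It was found for 4 of the 49 (8.16%), namely *Snrpa*, *Hnrnpa3*, *Hnrnpd* and *Hnrnpf*, against 9.18% of the 10886 tested genes with a promoter and 6.02% of all 32851 promoters. A gene counted if any of its starts had the motif, while the share of all promoters counts each promoter by itself. The stretches just upstream of the genes of SmD2, SmE, SmF and *Lsm7* are shown because these genes were among the 5 with the lowest adjusted p, and that of *Snrpa* because it is the SNRP gene with the E-box. That of *Snrpd1*, the other of the 5, is not shown. The genes themselves span positions 19149722 to 19153542 of chromosome 7 (*Snrpd2*), 133603871 to 133610291 of chromosome 1 (*Snrpe*), 93583029 to 93589706 of chromosome 10 (*Snrpf*), 80852821 to 80855209 of chromosome 10 (*Lsm7*) and 27187005 to 27196271 of chromosome 7 (*Snrpa*) on GRCm38. Every stretch lies outside all annotated exons of GENCODE M21 and reads in the direction of its gene, with CACGTG and CGGAAG in capitals. They lie at chr7:19149602-19149721 on the + strand (*Snrpd2*), chr1:133610292-133610410 on the − strand (*Snrpe*), chr10:93589771-93589890 on the − strand (*Snrpf*, ending 64 bases before the gene start, since an exon of another gene lies between), chr10:80855210-80855274 on the − strand (*Lsm7*) and chr7:27196272-27196391 on the − strand (*Snrpa*).
Snrpd2: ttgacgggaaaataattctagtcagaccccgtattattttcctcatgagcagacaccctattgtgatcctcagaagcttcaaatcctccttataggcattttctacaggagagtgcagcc
Snrpe: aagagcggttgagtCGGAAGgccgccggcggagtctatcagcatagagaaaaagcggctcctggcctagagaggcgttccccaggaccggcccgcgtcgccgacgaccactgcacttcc
Snrpf: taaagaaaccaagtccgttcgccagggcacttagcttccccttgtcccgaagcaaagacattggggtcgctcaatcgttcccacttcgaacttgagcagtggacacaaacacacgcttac
Lsm7: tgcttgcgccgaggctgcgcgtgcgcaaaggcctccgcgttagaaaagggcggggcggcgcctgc
Snrpa: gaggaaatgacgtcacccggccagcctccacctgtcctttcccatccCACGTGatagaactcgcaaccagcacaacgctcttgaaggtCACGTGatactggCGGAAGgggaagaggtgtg

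The *Snrpa* stretch holds CACGTG at 2 places, and the 4 other stretches hold it at none. The second motif, CGGAAG, is the core bound by ETS factors and was chosen after these letters were seen. On either strand, it was found in the 250 bases of 21 of the 49 genes (42.9%), of which 7 were SNRP genes among 10 (70.0%), 3 LSM genes among 10 (30.0%), 5 SRSF genes among 11 (45.5%) and 6 HNRNP genes among 18 (33.3%). *Snrpe* and *Snrpa*, whose stretches above hold CGGAAG, stay in these counts. The share was 27.1% of the tested genes with a promoter and 13.6% of all promoters. These are matches of letters, not measured binding.

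Of the 13 LSM genes, 8 code for the subunits of the U6 and decay rings, and 7 of these 8 had log2 fold changes below 0 (48.5% of all tested genes), with a median of −0.38. *Lsm7*, a subunit of both rings, was at 56.9, 86.7 and 79.0 CPM in wt/wt and at 42.9, 51.7 and 48.0 CPM in fl/fl cells. All fl/fl libraries were below all wt/wt libraries, although wt/wt library 1 came close. The log2 fold change of *Lsm7* was −0.63 (SE 0.14, edgeR adjusted p = 0.0271). *Lsm8*, the subunit that makes the ring specific for U6, was at 30.66, 40.1 and 45.1 CPM in wt/wt and at 23.0, 27.3 and 30.57 CPM in fl/fl cells. The lowest wt/wt library and the highest fl/fl library were almost level. This was a log2 fold change of −0.51 (SE 0.15, edgeR adjusted p = 0.0725). By contrast *Lsm1*, which defines the cytoplasmic decay ring, was at 56.4, 60.6 and 63.6 CPM in wt/wt and at 69.3, 67.9 and 55.7 CPM in fl/fl cells. Its groups overlapped, with a log2 fold change of 0.09 (SE 0.15, edgeR adjusted p = 0.801), and of 0.04 without wt/wt library 1. Whether *Lsm1* and *Lsm8* differed from each other in their response was not tested.

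*Lsm2* and *Lsm4* code for subunits of both rings. *Lsm2* was at 47.6, 50.3 and 53.0 CPM in wt/wt and at 37.8, 37.8 and 34.8 CPM in fl/fl cells, with little spread and no overlap. On the log2 scale the fold change was −0.45 (SE 0.14, edgeR adjusted p = 0.0918), which is under the fold limit. *Lsm4* was the most abundant LSM gene per length over the 6 libraries (mean of 299 TPM). In wt/wt libraries alone it was nearly level with *Lsm7* (means of 338 and 334 TPM). *Lsm4* was at 95.8, 151 and 152 CPM in wt/wt and at 95.2, 101 and 98.9 CPM in fl/fl cells. The shallow wt/wt library sat at the level of the fl/fl libraries, and the other 2 wt/wt libraries were far above. The log2 fold change was −0.41 (SE 0.16, edgeR adjusted p = 0.155), and without wt/wt library 1 and the block it was −0.64 (edgeR adjusted p = 0.00913). The remaining ring genes, *Lsm3*, *Lsm5* and *Lsm6*, had log2 fold changes of −0.30, −0.20 and −0.35.

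Of the 5 LSM genes outside the rings, 4 had log2 fold changes below 0. *Lsm10* and *Lsm11*, which replace SmD1 and SmD2 in the U7 particle that cuts histone pre-mRNA, had log2 fold changes of 0.06 and −0.33, with adjusted p of 0.869 and 0.448 in edgeR. *Lsm14a*, a translational repressor of P-bodies, had one of −0.45 with an adjusted p of 0.135 and no overlap between the groups, from 139 to 212 CPM in wt/wt and from 102 to 138 CPM in fl/fl libraries. *Lsm12* and *Lsm14b* had log2 fold changes of −0.37 and −0.26, and *Lsm14b* was weakly expressed, below 3 CPM in every library. Without wt/wt library 1 the log2 fold change was −0.28 for *Lsm14a*, −0.23 for *Lsm12* and −0.61 for *Lsm14b*.

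All 11 SRSF genes had log2 fold changes below 0, in a narrow band from −0.55 to −0.09. In 8 of the 11 every fl/fl library lay below every wt/wt library, which was the case for 15.1% of all tested genes. *Srsf10*, an SR protein that represses splicing when it loses its phosphates, had the smallest adjusted p of the family. It was at 228, 181 and 167 CPM in wt/wt and at 141, 144 and 126 CPM in fl/fl cells. The groups did not overlap, and wt/wt library 1 was the highest. The log2 fold change was −0.48 (SE 0.14, edgeR adjusted p = 0.0671), and −0.36 without wt/wt library 1 and with no block. *Srsf7*, which also takes part in mRNA export, was at 683, 447 and 416 CPM in wt/wt and at 330, 346 and 351 CPM in fl/fl cells. The fitted log2 fold change was −0.55 (SE 0.17, edgeR adjusted p = 0.0860), and −0.35 without wt/wt library 1 and with no block, a smaller difference than with it.

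*Srsf6* was at 255, 227 and 209 CPM in wt/wt and at 175, 188 and 175 CPM in fl/fl cells, again without overlap. Its log2 fold change was −0.36 (SE 0.14, edgeR adjusted p = 0.148). The most abundant SRSF genes per length were *Srsf5* and *Srsf3*, with means of 468 and 455 TPM over the 6 libraries. In wt/wt libraries alone the order was *Srsf3*, *Srsf2* and *Srsf5*, with means of 490, 479 and 460 TPM. *Srsf3*, the smallest SR protein, was at 714, 528 and 552 CPM in wt/wt and at 492, 510 and 499 CPM in fl/fl cells, a log2 fold change of −0.24 (SE 0.15, edgeR adjusted p = 0.367). Without wt/wt library 1, the highest, that of *Srsf3* was −0.13. The groups were separate but the gap between the highest fl/fl and the lowest wt/wt library was small. *Srsf5* had 390, 433 and 457 CPM in wt/wt and 428, 310 and 432 CPM in fl/fl cells, where fl/fl library 2 alone was low. This was a log2 fold change of −0.14 (SE 0.15, edgeR adjusted p = 0.653) and became 0.04 without replicate 2. *Srsf11* was at 231, 216 and 217 CPM in wt/wt and at 198, 213 and 213 CPM in fl/fl cells, a small gap without overlap. Its log2 fold change was the nearest to 0 of the family, at −0.09 (SE 0.13, edgeR adjusted p = 0.758). *Srsf1*, *Srsf2* and *Srsf9* had log2 fold changes of −0.33, −0.29 and −0.32, each without overlap between the groups, and the weakly expressed *Srsf12*, below 3 CPM in every library, one of −0.44. That of *Srsf4* was −0.27, and −0.02 without wt/wt library 1, which alone was above the fl/fl libraries by a wide gap.

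The HNRNP genes were the most abundant of the 4 families and had the smallest median shift. *Hnrnpk*, which binds C-rich RNA and DNA, had a mean of 2129 TPM and alone made up 30.1% of the family's TPM. It was at 1609, 1550 and 1610 CPM in wt/wt and at 1589, 1578 and 1508 CPM in fl/fl cells. The genotypes overlapped and every library was within a narrow range. On the log2 scale the fold change was −0.03 (SE 0.13, edgeR adjusted p = 0.939). *Hnrnpf*, the second of the family at a mean of 1075 TPM and a binder of G-rich RNA, had a log2 fold change of −0.09 (SE 0.13, edgeR adjusted p = 0.762), with 1383, 1461 and 1352 CPM in wt/wt and 1221, 1367 and 1356 CPM in fl/fl libraries, which overlapped. Its relatives *Hnrnph1*, *Hnrnph2* and *Hnrnph3* had log2 fold changes of −0.10, 0.18 and 0.05, and of −0.06, 0.06 and 0.03 without wt/wt library 1.

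The 4 lowest log2 fold changes of this family were those of *Hnrnpa3*, *Hnrnpa1*, *Hnrnpab* and *Hnrnpa2b1*, whereas *Hnrnpa0* was at −0.12. *Hnrnpa1*, a core protein of hnRNP particles that binds pre-mRNA, was at 222, 185 and 220 CPM in wt/wt and at 130, 149 and 157 CPM in fl/fl cells. The groups did not overlap, and the shallow library was level with wt/wt library 4. For *Hnrnpa1* the log2 fold change was −0.52 (SE 0.14, edgeR adjusted p = 0.0556). *Hnrnpa2b1* was at 1111, 1068 and 1130 CPM in wt/wt and at 986, 628 and 927 CPM in fl/fl cells, a log2 fold change of −0.41 (SE 0.15, edgeR adjusted p = 0.148), in which fl/fl library 2 stood far below the others. The same library was the lowest for *Hnrnpa3*, with 222, 265 and 293 CPM in wt/wt and 233, 123 and 165 CPM in fl/fl cells. For *Hnrnpa3*, fl/fl library 1 overlapped the wt/wt libraries, and the log2 fold change was −0.63 (SE 0.21, edgeR adjusted p = 0.104). Without replicate 1 it was −0.97 (edgeR adjusted p = 0.0182), and without wt/wt library 1 alone −0.70 (edgeR adjusted p = 0.111). *Hnrnpab*, a relative of *Hnrnpd*, was at 714, 527 and 540 CPM in wt/wt and at 415, 439 and 433 CPM in fl/fl cells, without overlap, a log2 fold change of −0.45 (SE 0.15, edgeR adjusted p = 0.0989).

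Of the other HNRNP genes, *Hnrnpm*, *Hnrnpr* and *Hnrnpu* also had groups of libraries that did not overlap, with log2 fold changes of −0.21, −0.31 and −0.25. *Hnrnpa0*, *Hnrnpc*, *Hnrnpd*, *Hnrnpdl*, *Hnrnpl*, *Hnrnpll* and *Hnrnpul2* had log2 fold changes between −0.22 and −0.10 and overlapping groups. Without wt/wt library 1 those of *Hnrnpa0* and *Hnrnpul2* were −0.38 and −0.40, while those of *Hnrnpc* and *Hnrnpll* were −0.06 and 0.01 and that of *Hnrnpl* was 0.00. The highest log2 fold change of the 56 genes was 0.32, for *Hnrnpul1* (SE 0.19, edgeR adjusted p = 0.367), which became 0.05 without replicate 1. It was at 72.2, 85.9 and 76.4 CPM in wt/wt and at 132, 76.9 and 91.3 CPM in fl/fl cells, where fl/fl library 1 alone was above all wt/wt libraries by a wide gap and fl/fl library 2 lay within their range.

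Summed over its genes, each family held a smaller share of all estimated counts in every fl/fl library than in any wt/wt library. The SNRP genes held 0.117%, 0.150% and 0.152% of the counts in wt/wt and 0.103%, 0.111% and 0.103% in fl/fl libraries. Their mean share was 0.140% ± 0.0196 in wt/wt and 0.106% ± 0.00452 in fl/fl libraries (SD, n = 3 each), so the fl/fl share was 75.6% of the wt/wt share. For LSM the means were 0.0891% ± 0.00573 and 0.0705% ± 0.00168 (SD, n = 3 each), or 79.2%. For SRSF they were 0.316% ± 0.0228 and 0.258% ± 0.00429 (SD, n = 3 each), or 81.5%, and for HNRNP 0.827% ± 0.0121 and 0.735% ± 0.0365 (SD, n = 3 each), or 88.8%. All 56 genes together held 1.37% ± 0.0142 and 1.17% ± 0.0369 (SD, n = 3 each) of the counts. A two-sided exact permutation test gave p = 0.1 for each family and for all 56 genes, which is the smallest p that 3 libraries against 3 allow. The genes with the most counts weigh most in these shares.

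**Figure D4:**
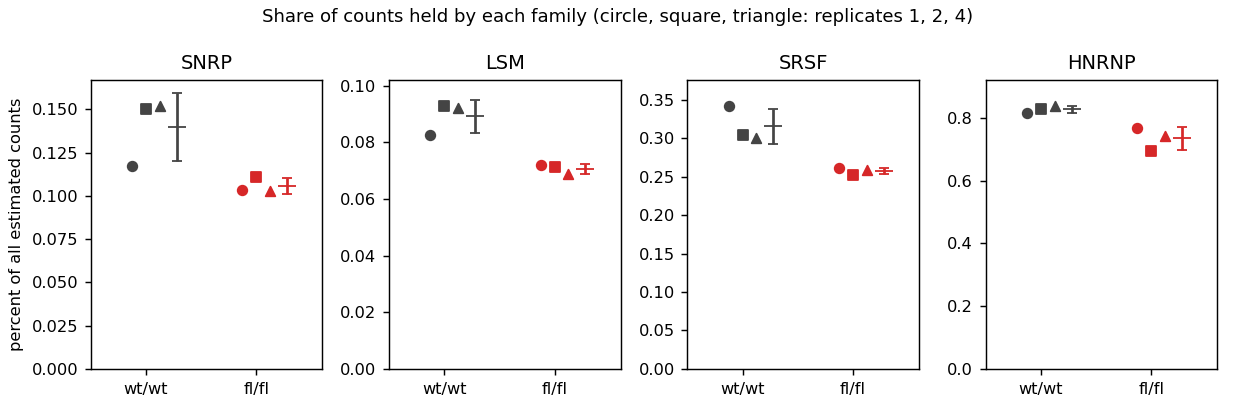
Percent of all estimated counts on the genes of each family (vertical axis from 0, its own scale in each panel) in each library, with the mean and SD of 3 libraries beside them. Grey is wt/wt and red fl/fl. No panel shows an overlap between the genotypes, and for SNRP the shallow wt/wt library 1, at 0.117%, lies closest to the fl/fl libraries.

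SR protein and hnRNP genes often hold poison exons or retained introns, through which they limit their own level, and transcripts of these kinds are annotated as targets of nonsense-mediated decay or as retained introns. The counts on such transcripts were therefore set against those on the gene's protein-coding transcripts. This ratio is taken within a gene and is not the measure tested in the genotype comparison. It could be fitted for 39 of the 56 genes and for 6387 genes in all. In *Srsf3* such transcripts took 76.1% of the gene's counts on average, ranging from 70.0% to 81.0% over the 6 libraries. In *Hnrnpu* it was 71.9%, in *Hnrnph3* 65.9% and in *Srsf6* 42.6%, while the median was 22.8% over 8 SRSF genes, 18.5% over 12 HNRNP genes, 7.89% over 9 SNRP genes, 5.37% over 10 LSM genes and 12.0% over all genes in the fit.

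No difference in these ratios between the genotypes could be called, although the test called none for any gene and so does not show that they were alike. In limma-trend with the block, 0 of the 39 genes passed an adjusted p below 0.01, 0 of the 6387 did (0.0% in either direction), and the smallest adjusted p over all of them was 0.874. At an unadjusted p below 0.05, 0 of the 39 were lower and 1 was higher, against 2.88% and 2.11% of all genes in the fit. That gene was *Srsf9*, whose share was 0.0%, 1.52% and 0.470% in wt/wt and 2.12%, 2.35% and 2.16% in fl/fl libraries, small shares in all of them. The next genes by unadjusted p, at the same adjusted p, were *Lsm8*, *Lsm4*, *Lsm14a*, *Srsf3*, *Srsf4* and *Srsf11*. *Lsm8* had 10.8%, 13.7% and 11.7% in wt/wt and 7.70%, 8.68% and 5.55% in fl/fl libraries, with a log2 ratio lower by 0.82 (SE 0.32, limma adjusted p = 0.874). For *Srsf3* the share was 73.9% ± 3.39 in wt/wt and 78.3% ± 2.33 in fl/fl libraries (SD, n = 3 each), for *Srsf4* 7.61% ± 2.22 and 10.3% ± 1.04, and for *Srsf11* 35.9% ± 1.11 and 40.7% ± 1.71 (SD, n = 3 each). All fl/fl libraries had a higher share than all wt/wt libraries in 5 of the 39 genes (*Srsf3*, *Srsf4*, *Srsf9*, *Srsf11* and *Hnrnpm*) and a lower share in 2 (*Lsm8* and *Hnrnpk*), against 5.62% and 7.55% of all genes in the fit, but the gap was small for *Srsf3*, *Srsf4*, *Hnrnpk* and *Hnrnpm*. *Lsm4* and *Lsm14a* had under 5% of their counts on such transcripts in every library. The counts on single transcripts are estimates from single-end reads, which limits these ratios.

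**Figure D5:**
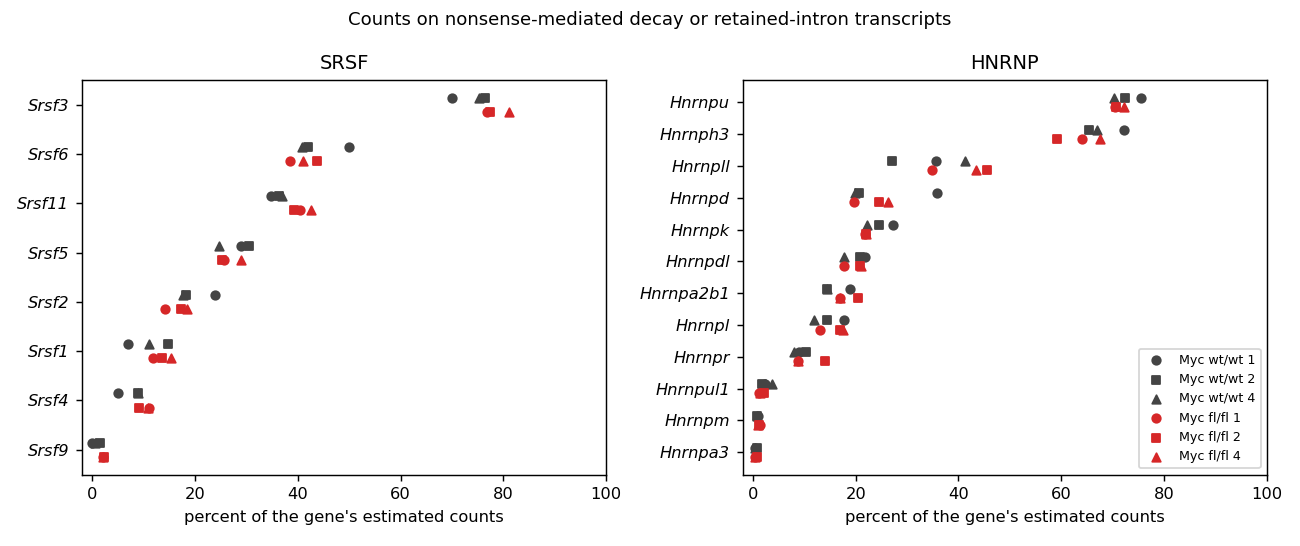
Percent of a gene's estimated counts on nonsense-mediated decay or retained-intron transcripts (horizontal axis) for the SRSF (left) and HNRNP (right) genes that could be fitted. Grey symbols are wt/wt and red symbols fl/fl libraries, with the shape giving the replicate number. *Srsf3*, *Hnrnpu* and *Hnrnph3* lie highest, and no gene passed the test.

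The rest of the splicing pathway was read from 12 lists with 159 genes outside the 4 families, of which 158 were tested. Of these, 1 fell past the threshold and 0 rose, at the backgrounds of 0.872% and 1.28%. At an unadjusted p below 0.05 in edgeR, 31 of the 158 were lower and 5 higher, at backgrounds of 10.2% and 12.4%, and the median log2 fold change was −0.16. The gene past the threshold was *U2af1*, the small subunit of the factor that reads the end of the intron. It was at 174, 78.1 and 86.5 CPM in wt/wt and at 42.9, 21.2 and 49.8 CPM in fl/fl cells, all fl/fl libraries being below all wt/wt libraries. The fitted log2 fold change was −1.57 (SE 0.23, edgeR adjusted p = 0.00514), but without the block the adjusted p was 0.0244, and without replicate 1, where it was −1.34, it was 0.0281. For *U2af1* it was −1.13 without wt/wt library 1 (edgeR adjusted p = 0.0624). *Tra2b*, an SR-like activator of exons, was at 371, 377 and 364 CPM in wt/wt and at 224, 202 and 240 CPM in fl/fl cells. This was a wide gap with little spread, and its log2 fold change of −0.74 (SE 0.13) missed the limit with an adjusted p of 0.0116 in edgeR. Without the block its adjusted p was 0.00518.

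By function, the lists with the lowest medians were other hnRNP-like proteins (−0.31 over 20 genes), the assembly and import of the particles (−0.29 over 17), U1 proteins and their recruiters (−0.25 over 7), the exon junction complex (−0.25 over 5) and U2, SF3 and U2AF proteins (−0.22 over 17). In the assembly list, *Gemin6*, part of the SMN complex that loads Sm rings, had a log2 fold change of −0.71 (edgeR adjusted p = 0.0418), and *Prmt5*, the enzyme that methylates Sm proteins, one of −0.47 (edgeR adjusted p = 0.0736). In the U1 list, *Luc7l3* had one of −0.62 (edgeR adjusted p = 0.0300) and *Snrnp70* one of −0.51 (edgeR adjusted p = 0.160). *Phf5a*, an SF3b subunit, stood at −0.58 (edgeR adjusted p = 0.0475) and *Txnl4a*, a U5 protein, at −0.52 (edgeR adjusted p = 0.0483). Medians were −0.17 over 14 other SR-like proteins (*Pnn* −0.42) and over 9 proteins of the minor spliceosome (*Snrnp25* −0.30, *Rnpc3* −0.30), −0.11 over 20 proteins of the tri-particle (*Ppih* −0.42) and over 20 of the catalytic step (*Ctnnbl1* −0.34, *Dhx38* 0.32), and −0.08 over 10 SR kinases and their importers (*Srpk1* −0.50, *Srpk3* 1.46 at under 2 CPM and 0.86 without wt/wt library 1). None of these latter genes passed the threshold. Without replicate 1 the medians were −0.06 for the minor spliceosome, −0.03 for the catalytic step, 0.03 for the SR kinases and their importers and −0.18 for assembly and import, so that of the SR kinases has no stable sign. Leaving out wt/wt library 1 gave −0.10, −0.04, −0.05 and −0.23.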

How the data were processed

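Transcripts were quantified by the authors, and their tables hold for every mouse transcript an estimated count, which is not normalized, a TPM value, scaled by the authors' quantifier to transcript length and library total, and an effective length. The methods name Salmon and GRCh38, whereas the deposited columns are those of kallisto and the identifiers are those of mouse. Reads were single end, from a full-length cDNA kit that does not mark strand, so reads of genes overlapping on opposite strands cannot be told apart, and those of near-identical copies can be divided between them. The 5 pseudogenes named after these families were not analysed here.

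Estimated counts were summed by symbol through GENCODE M21 (100239 of 100583 transcripts matched; unmatched ones held 0.129% to 0.169% of the counts) and rounded. Genes passing filterByExpr were normalized by TMM and compared by the quasi-likelihood test of edgeR 4.0.16 under R 4.3.3, blocking on the replicate number, since the paper calls its analyses paired. The Benjamini-Hochberg adjustment ran over all 15474 tested genes, and the limits of 0.01 and 0.5 are those the study states for its RNA-seq comparison. DESeq2 1.42.0 and limma-trend 3.58.1 were alternatives. Equal numbers were not shown to pair the mice: deviations from the genotype means correlated at −0.0121, −0.0198 and 0.0505 between same-numbered libraries, below the limit of 0.1. Replicates differed by more than counting noise (chi-square per degree of freedom 39.98 to 101.3). Nothing in the labels says which libraries come from which mice, so p-values rest on variation between these libraries. In the main fit this is the variation left after the replicate block.

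The fits were tested on simulated data with known changes. Transcript ratios used limma-trend on the log2 ratio with 0.5 added to both counts, for genes with at least 10 such counts on average. Values by library (for *Snrpn* the range of its counts) are given for the 3 genes of each family with the smallest adjusted p, the 2 with the highest mean TPM and those with the lowest and highest log2 fold change, and values for 2 genes of each splicing list, again by adjusted p, except for 1 that is not reported here. Other members named were chosen after their values were seen. The genes, lists and tests were chosen with earlier results of these data known. The remaining alternatives were offsets from effective lengths, other filters and scalings, TMM factors from all but the ribosomal protein genes, a correction for gene length, and leaving out each replicate number.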

Additional observations from a re-analysis of the deposited data

How the results depend on the processing

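With no replicate block, 0 of the 56 genes passed the threshold, as with it, and the family medians were −0.43, −0.36, −0.32 and −0.15 for SNRP, LSM, SRSF and HNRNP. The numbers of genes past the threshold, 135 lower and 198 higher, became 184 and 203 without the block, 548 and 645 in DESeq2, 78 and 144 in limma-trend and in the largest adjusted p of the 3 tools, 8 and 24 with effective length offsets, 378 and 524 with no filter, 25 and 49 with library size only, and 523 and 689 at an adjusted p below 0.05 with no fold limit. Leaving out a replicate number gave from 10 to 114 lower and from 49 to 162 higher, and leaving out a single library with no block gave 130 and 113 (wt/wt replicate 1), 40 and 35 (wt/wt 2), 21 and 45 (wt/wt 4), 11 and 31 (fl/fl 1), 6 and 19 (fl/fl 2) and 70 and 116 (fl/fl 4). The single-library fits other than that without wt/wt replicate 1 were chosen after seeing the data, and the lone pair left in a genotype is assumed to vary like the other genotype.

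Of the 56 genes, 5 were called lower in DESeq2 and at an adjusted p below 0.05 (4 SNRP and 1 LSM), 3 with no filter (3 SNRP: *Snrpd1*, *Snrpd2* and *Snrpf*) and 2 without wt/wt replicate 1 (1 SNRP and 1 LSM). The cause was not tested. Under the other alternatives 0 were called, and in none was a gene of the 56 called higher. The LSM median was −0.28 with the length trend removed. HNRNP medians ranged from −0.23 to −0.11 when a replicate number was left out and were −0.17 without wt/wt replicate 2 and −0.20 without fl/fl replicate 1, both with no block. That of all 56 genes ranged from −0.31 (without replicate 1 or 4) to −0.24 (with the length trend removed), and from −0.31 to −0.27 with a replicate number left out. The difference in share from TPM was −0.0542, −0.0349 and −0.0353 percentage points for SNRP, LSM and SRSF, against −0.0341, −0.0186 and −0.0583 from counts. Signs turned for *Snrpn* (−0.02 in DESeq2, −0.11 in limma-trend, −0.10 without wt/wt replicate 1, and from −0.68 to 0.47 with a replicate number left out), *Lsm1* (from −0.02 to 0.21 likewise), *Srsf5* (from −0.28 to 0.04 likewise), *Hnrnpk* (0.05 with the length trend removed), and, under at least 1 alternative, for *Snrpc*, *Lsm14b*, *Hnrnpa0*, *Hnrnpdl*, *Hnrnph3*, *Hnrnpll* and *Hnrnpul2*, none of them past the threshold. The counts of wt/wt library 1 are the fewest of the 6 libraries, so its values are the least precise by counting.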

Other observations

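The median log2 fold change was 0.12 over 10 factors of nonsense-mediated decay, with 7 of the 10 above 0, 0.07 over 9 partners of the *Lsm1* ring in mRNA decay, with 5 of the 9 above 0, and −0.25 over 5 proteins of the exon junction complex, with 2 of the 5 above 0. Without replicate 1 these medians were 0.04, 0.03 and −0.17, and without wt/wt library 1, with no block, 0.05, 0.03 and −0.22. With effective length offsets that of the decay partners was −0.02, so no direction is given for it. Of these genes, 0 passed the threshold in edgeR, 2 were higher and 1 was lower at an unadjusted p below 0.05, against 12.4% and 10.2% of all tested genes. *Upf1*, the helicase of nonsense-mediated decay, had a log2 fold change of 0.30 (edgeR adjusted p = 0.448). *Edc4*, a decapping scaffold, and *Dcp2*, the decapping enzyme, had log2 fold changes of 0.36 and −0.42 (edgeR adjusted p = 0.189 and 0.257), and that of *Dcp2* was −0.26 without wt/wt library 1. *Rbm8a* and *Magoh*, which pair in the exon junction complex, stood at −0.42 and −0.30 (edgeR adjusted p = 0.0890 and 0.296). Whether these lists differed from the splicing families was not tested.

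Among hnRNP-like genes outside the family, *Cirbp*, the cold-inducible RNA-binding protein, had the highest log2 fold change, at 39.0, 48.9 and 66.4 CPM in wt/wt and 78.6, 65.6 and 79.6 CPM in fl/fl cells (log2 fold change 0.56, edgeR adjusted p = 0.0770, and 0.36 without wt/wt library 1). Fl/fl library 2 lay below wt/wt library 4. *Taf15*, an RNA-binding protein, was at 7.54, 7.96 and 6.82 CPM in wt/wt and 3.96, 3.80 and 4.25 CPM in fl/fl cells, without overlap (log2 fold change −0.89, edgeR adjusted p = 0.0620).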
